A study of Mus musculus with 12 samples.

Results

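Among the genes that the Ras-ERK pathway switches on, 10 were followed that either hold the pathway back or carry its signal into transcription. They are the Sprouty genes Spry1, Spry2 and Spry4, the Sprouty-related genes Spred1 and Spred2, the phosphatase genes Dusp4 and Dusp6, and the PEA3-family transcription factor genes Etv1, Etv4 and Etv5. Each was chosen by its symbol in the deposited FPKM table and joined by its Ensembl identifier to the count table, so that 10 of the 37991 genes counted were members. All 10 passed the filter on low counts, which left 16473 genes. The identifiers are ENSMUSG00000037211 (Spry1), ENSMUSG00000022114 (Spry2), ENSMUSG00000024427 (Spry4), ENSMUSG00000027351 (Spred1), ENSMUSG00000045671 (Spred2), ENSMUSG00000031530 (Dusp4), ENSMUSG00000019960 (Dusp6), ENSMUSG00000004151 (Etv1), ENSMUSG00000017724 (Etv4) and ENSMUSG00000013089 (Etv5).

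Growth factors such as FGF and EGF bind receptor tyrosine kinases, adaptors recruit SOS to load Ras with GTP, and Ras passes the signal through RAF and MEK to ERK. ERK then induces its own restraints: Sprouty and Spred proteins act at the level of receptors, Ras and RAF, while DUSP phosphatases take the phosphate off ERK. The PEA3 factors are among the genes that FGF signalling through ERK induces most widely in development, and in many tissues the level of Spry, Dusp6 and Etv transcripts is read as a measure of ERK output. Part of this induction works by relief of repression, because ERK inactivates Capicua, a repressor that binds octamers of the TGAATGAA type in the promoters of Etv, Spry and Dusp genes.

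Each of the 12 libraries came from the cord of 1 adult C57bl/6J mouse older than 8 weeks, and every group carried the same alleles, Glast-CreERT2, R26R-YFP and Rasless. SCI Tam denotes injury sites of mice given 2 mg of tamoxifen on each of 5 days, followed by 7 clearing days and a high thoracic dorsal hemisection (mice 452, 513, 549 and 564). SCI Veh denotes the same injury after injections of the ethanol and corn oil solvent (mice 402, 428, 429 and 457), and both were dissected 14 days after the hemisection. Uninjured denotes cord segments without injury, whose labels also give vehicle as the injection (mice 376, 377, 385 and 467). Values of a group are printed below in the order of these mouse numbers. Tamoxifen activates a Cre expressed from the Glast (Slc1a3) promoter, which in this line is used to reach type A pericytes, and the series describes pericyte-derived scarring as dense in SCI Veh and attenuated in SCI Tam. RNA was taken from whole tissue pieces in which most cells are not pericytes, so that the level in the recombined cells was not measured apart from that in all others.

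Libraries held between 7967970 and 12581324 counts, and the members had between 52 counts (Dusp4) and 2475 counts (Spred1) in a library. Features of the libraries other than treatment moved with the groups. In the labels, mice 513, 549 and 564 have sample names 106 to 108 and the 9 others names of at most 20, so that 452 is the one SCI Tam library of the low series. By Xist and Y-linked transcripts all 4 SCI Tam mice were female and 3 of 4 SCI Veh mice male, against 1 male among the Uninjured mice. Transcripts of skeletal muscle were high (mean log2 CPM of the list above 2) in SCI Veh mice 402, 429 and 457 and in Uninjured mice 377 and 385, and in no SCI Tam mouse. Of the Ras genes, Hras1 was at 15.2 ± 1.51 CPM (normalised counts scaled to a common library size, mean ± SD, n = 4) in SCI Tam and 15.4 ± 1.28 in SCI Veh, and Nras at 17.9 ± 2.46 and 18.3 ± 3.73. The labels do not say which exons the alleles remove, so counts over whole genes do not check recombination.

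Compared per length of transcript, as the authors' FPKM, the members differed widely in level. Spred1 was the most abundant in each group, at 29.3 ± 0.908 FPKM in SCI Tam, 26.0 ± 1.32 in SCI Veh and 28.3 ± 0.842 in Uninjured (SD, n = 4 each), and its libraries lay above those of every other member. Dusp4 was the least abundant, at 1.85 ± 0.306, 1.64 ± 0.245 and 2.90 ± 0.469 FPKM in the same groups, and its libraries lay below those of every other member. Between them, Spry2, Etv1, Spred2, Dusp6 and Etv5 formed a middle band, from 10.8 to 16.9 FPKM in SCI Tam, from 10.4 to 14.5 in SCI Veh and from 8.13 to 17.9 in Uninjured, in which each gene's libraries overlapped those of its neighbour in the order, apart from Etv5 and Dusp6 in Uninjured. Etv4 and Spry1 came next in the injured groups (6.29 and 5.49 FPKM in SCI Tam, 6.73 and 6.13 in SCI Veh) with overlapping libraries, followed by Spry4 (3.75 and 3.44 FPKM). In Uninjured, Etv4 stood higher in the order, above Etv5 and Dusp6 at 11.6 ± 1.41 FPKM, and Spry1 (5.14) and Spry4 (5.13) did not differ beyond their spread.

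**Figure D1:**
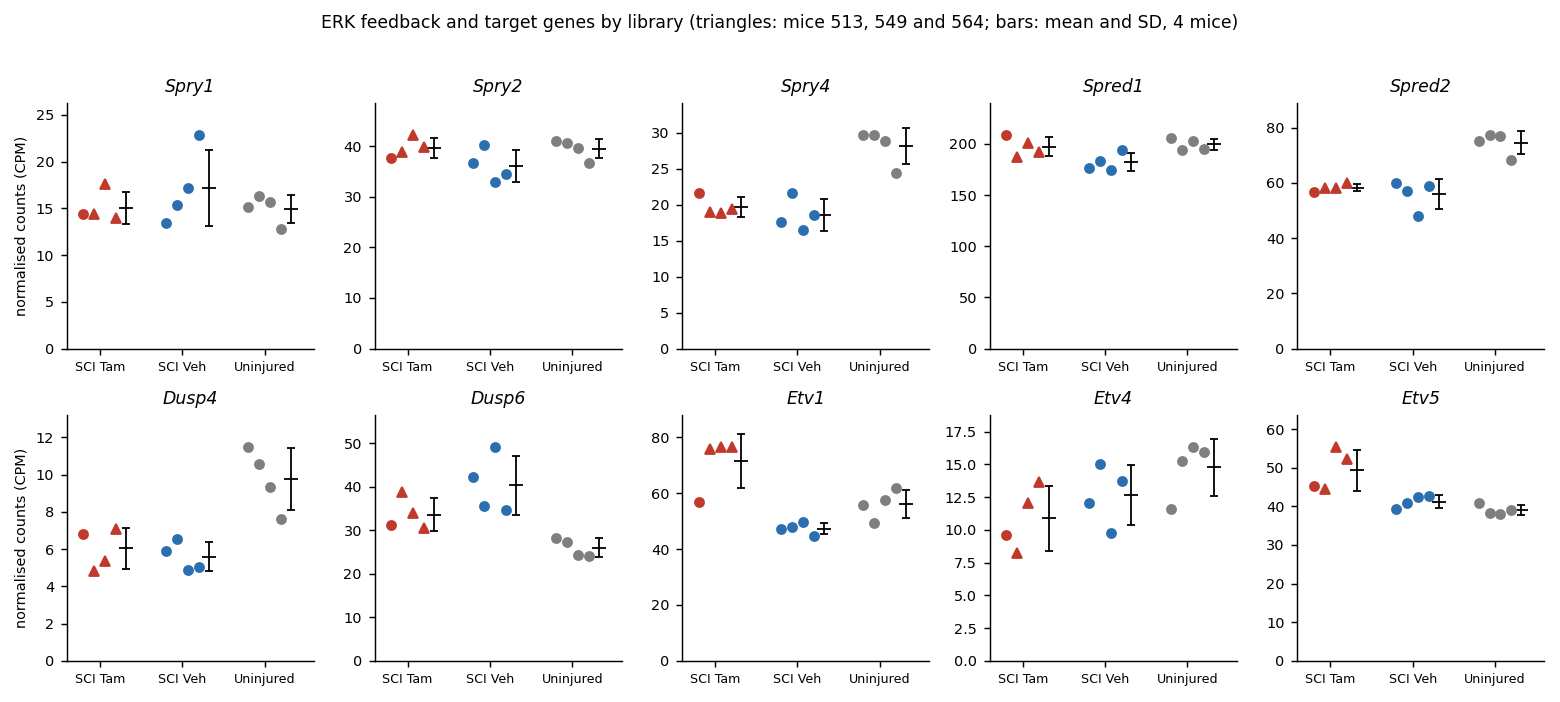
Normalised counts (CPM, linear axis from 0) of the 10 members in each library of SCI Tam, SCI Veh and Uninjured, with the mean and SD of 4 mice beside each group. Etv1 lies higher in all 4 SCI Tam libraries than in any SCI Veh library, and Spry4, Spred2 and Dusp4 lie lower in both injured groups than in Uninjured.

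The comparison of SCI Tam with SCI Veh asked how the injury site differs after tamoxifen, given to recombine the alleles in pericytes. No group received tamoxifen without these alleles, so recombination and tamoxifen itself cannot be told apart. Etv1 rose 1.51-fold and Etv5 1.20-fold after tamoxifen, and neither the feedback inhibitors nor Etv4 passed the test, which was edgeR's quasi-likelihood test with a Benjamini-Hochberg adjusted p under 0.05. Thus 2 of 10 members passed, both higher and 0 lower, against 16.1% of all genes tested, of which 7.79% were higher and 8.33% lower. The members' median log2 change was 0.10, beside 0.00 over all genes tested. A share of 2 in 10 is near the background share and is no result about the list. In tissue of this kind fewer cells of a type and less RNA per cell cannot be told apart.

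The comparison of SCI Veh with Uninjured asked what the injury itself changes. Dusp6 rose 1.55-fold in SCI Veh, while Spry4, Spred2 and Dusp4 fell to 0.659, 0.750 and 0.571 of the Uninjured level. In all, 4 of 10 members passed, 1 higher and 3 lower, against 50.8% of all genes tested (26.7% higher and 24.1% lower), with a median log2 change of -0.18 beside 0.02 over all genes. In SCI Tam against Uninjured 6 of 10 passed, against 48.9% of all genes tested (26.3% higher and 22.7% lower). Dusp6, Etv1 and Etv5 were higher and Spry4, Spred2 and Dusp4 lower, and the members' median log2 change was -0.01, beside 0.01 over all genes. Both counts lie near the background shares and are no result about the list. With 452 as the one SCI Tam library, the log2 changes against Uninjured were -0.38 for Spry4, -0.39 for Spred2, -0.51 for Dusp4 and 0.26 for Dusp6, and none passed (adjusted p between 0.0763 and 0.400). The 3 comparisons share their libraries in pairs, so a gene's values in them are given side by side and are not separate evidence.

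**Figure D2:**
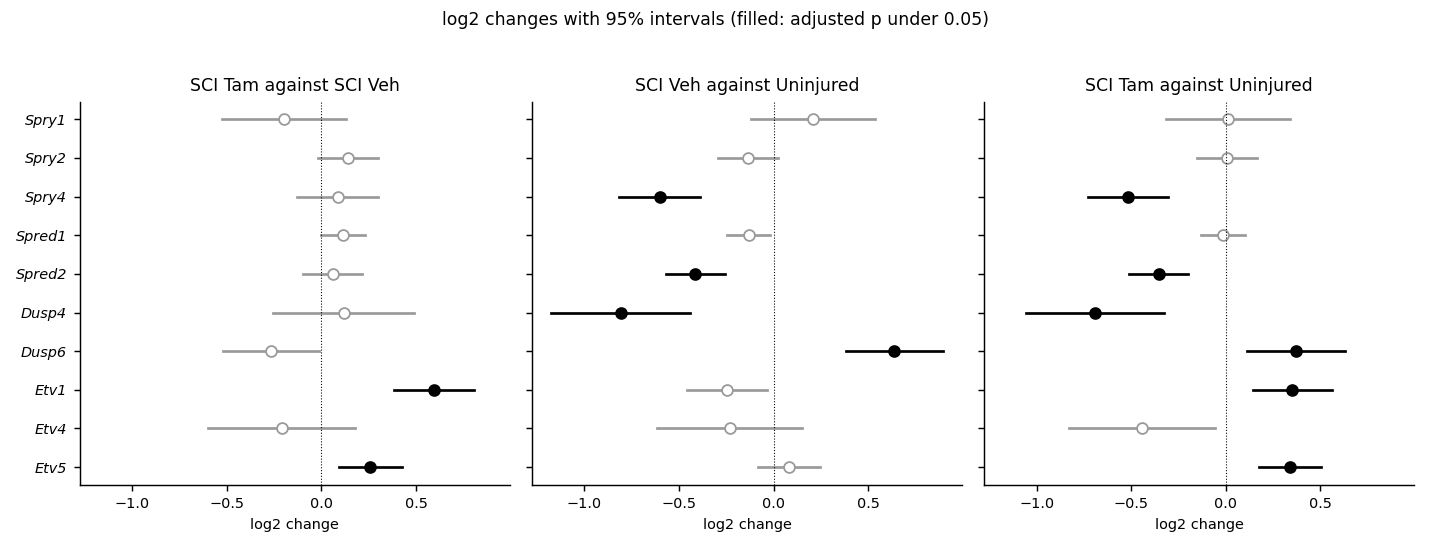
log2 changes of the members with 95% intervals from edgeR's quasi-likelihood fit for SCI Tam against SCI Veh, SCI Veh against Uninjured and SCI Tam against Uninjured, filled where the adjusted p was under 0.05. Spry4, Spred2 and Dusp4 lie to the left of 0 in both comparisons with Uninjured, while Etv1 at 0.60 is the largest change between SCI Tam and SCI Veh.

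Sprouty proteins bind adaptors and RAF downstream of receptors and blunt the signal to ERK. Spry4 had 21.7, 18.9, 18.8 and 19.4 CPM in SCI Tam, 17.6, 21.6, 16.5 and 18.6 CPM in SCI Veh, and 29.7, 29.7, 28.8 and 24.4 CPM in Uninjured. Every library of both injured groups lay below the lowest Uninjured library, while SCI Tam and SCI Veh overlapped. The log2 change was -0.52 ± 0.10 (SE) in SCI Tam against Uninjured (adjusted p = 0.00100) and -0.60 ± 0.10 in SCI Veh against Uninjured (adjusted p = 0.000274). Between SCI Tam and SCI Veh it was 0.08, with a 95% interval from -0.13 to 0.30 (adjusted p = 0.578).

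Spry1 and Spry2 passed no test. Spry1 had 14.4, 14.3, 17.6 and 14.0 CPM in SCI Tam, 13.5, 15.3, 17.2 and 22.9 CPM in SCI Veh, and 15.1, 16.3, 15.6 and 12.8 CPM in Uninjured. The groups overlapped, and SCI Veh was the most dispersed, with mouse 457 at the top (coefficient of variation 23.7%, against 11.3% in SCI Tam and 10.1% in Uninjured). Its log2 change was -0.20 between SCI Tam and SCI Veh (95% interval -0.52 to 0.13, adjusted p = 0.383) and 0.21 between SCI Veh and Uninjured (-0.12 to 0.54, adjusted p = 0.275). Spry2 had 37.6, 38.9, 42.3 and 39.9 CPM in SCI Tam, 36.6, 40.2, 33.0 and 34.5 CPM in SCI Veh, and 41.1, 40.7, 39.7 and 36.8 CPM in Uninjured. In Spry2, 3 of 4 SCI Veh libraries lay below all SCI Tam libraries, but 428 did not, and the log2 change was 0.14 (95% interval -0.02 to 0.30, adjusted p = 0.201).

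Spred proteins carry a Sprouty-like domain and bring neurofibromin, a GTPase-activating protein, to Ras at the membrane. Spred2 had 56.8, 58.1, 58.0 and 59.9 CPM in SCI Tam, 59.9, 57.0, 47.9 and 58.7 CPM in SCI Veh, and 75.2, 77.5, 76.9 and 68.4 CPM in Uninjured. All 8 injured libraries lay below all Uninjured libraries, and mouse 429 was the lowest of all. The log2 change was -0.36 ± 0.07 in SCI Tam against Uninjured (adjusted p = 0.00150) and -0.41 ± 0.07 in SCI Veh against Uninjured (adjusted p = 0.000414). Between SCI Tam and SCI Veh it was 0.06 (95% interval -0.10 to 0.22, adjusted p = 0.592).

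Spred1 had 209.0, 187.6, 200.5 and 191.9 CPM in SCI Tam, 176.1, 182.8, 174.9 and 194.0 CPM in SCI Veh, and 205.6, 194.5, 202.9 and 195.2 CPM in Uninjured. SCI Veh lay just below Uninjured with no overlap, yet the log2 change of -0.13 did not pass (adjusted p = 0.0541), and it passed under 8 of the 26 alternatives tried. SCI Tam exceeded SCI Veh by 0.12 (95% interval 0.00 to 0.23, adjusted p = 0.150) and differed from Uninjured by -0.02 (-0.13 to 0.10, adjusted p = 0.817). The spread of Spred1 within a group was low, with a coefficient of variation of 4.81% in SCI Tam, 4.81% in SCI Veh and 2.78% in Uninjured.

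The phosphatase genes went in opposite directions after injury. Dusp6 encodes a cytoplasmic phosphatase selective for ERK, and it had 31.2, 38.7, 34.0 and 30.5 CPM in SCI Tam, 42.2, 35.5, 49.1 and 34.6 CPM in SCI Veh, and 28.2, 27.3, 24.3 and 24.1 CPM in Uninjured. Every injured library lay above every Uninjured library, SCI Tam and SCI Veh overlapped, and the 2 highest values were those of SCI Veh mice 402 and 429. The log2 change was 0.64 ± 0.12 in SCI Veh against Uninjured (adjusted p = 0.000687) and 0.37 ± 0.12 in SCI Tam against Uninjured (adjusted p = 0.0208). The second of these no longer passed without mouse 385, 467 or 513 (adjusted p = 0.0609, 0.0583 and 0.0718). SCI Tam was lower than SCI Veh by a log2 change of -0.27 with a 95% interval of -0.52 to -0.01, which did not pass after adjustment (adjusted p = 0.135).

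Dusp4 encodes a nuclear phosphatase of ERK and of related kinases. It had 6.83, 4.85, 5.38 and 7.07 CPM in SCI Tam, 5.88, 6.54, 4.87 and 5.02 CPM in SCI Veh, and 11.5, 10.5, 9.31 and 7.64 CPM in Uninjured. All injured libraries lay below all Uninjured libraries, although SCI Tam mouse 564 and Uninjured mouse 467 were close. The log2 change was -0.69 ± 0.17 in SCI Tam against Uninjured (adjusted p = 0.00465) and -0.81 ± 0.17 in SCI Veh against Uninjured (adjusted p = 0.00152). Between the injured groups it was 0.12 with a wide 95% interval of -0.26 to 0.49 (adjusted p = 0.667), and Dusp4 had the fewest counts of the members.

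The promoters of the members are shown where they hold the octamer that Capicua binds, which among the promoters at hand were those of Dusp6 and Spry2. RefSeq promoters on GRCm38.p6 (from 250 bases before to 50 after a start site) were at hand for 7 members, Spred1, Spry1, Dusp6, Spred2, Etv1, Spry2 and Etv5, with 2 start sites each for Etv1 and Etv5. Both strands were searched for TGAATGAA, TGAATGGA, TCAATGAA and TCAATGGA, and for the ETS core AGGAAGT. Matches that overlap each other were counted separately. Windows from 100 bases before to 20 after the start site are printed on the gene's own strand, with the octamers in capitals, which on this strand read as the reverse complement.
Dusp6, chr10:99263131-99263250 (+): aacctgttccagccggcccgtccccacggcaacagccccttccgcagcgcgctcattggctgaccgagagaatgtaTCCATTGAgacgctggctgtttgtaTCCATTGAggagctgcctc
Spry2, chr14:105896800-105896919 (-): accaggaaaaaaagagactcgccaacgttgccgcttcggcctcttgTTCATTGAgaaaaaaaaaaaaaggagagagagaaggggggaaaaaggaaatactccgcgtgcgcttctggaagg
The Dusp6 promoter held TCAATGGA in 2 places, from -24 to -17 and from 2 to 9 relative to the start site, and the Spry2 promoter held TCAATGAA from -54 to -47. Among 32851 promoters searched, 3.84% held at least 1 of the octamers and 0.183% held 2 or more. The ETS core was in the Spred2 promoter and in 1 of the 2 promoters of Etv1 and of Etv5, and in 9.35% of all promoters. A match describes the letters of the window and shows no binding, and Dusp6 (log2 0.64 in SCI Veh against Uninjured) and Spry2 (log2 -0.13) differed in whether they passed the test there, a difference that was not itself tested.

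The PEA3 factors are ETS-domain activators, and Etv1 had the largest change between SCI Tam and SCI Veh of all members. It had 56.9, 75.9, 76.6 and 76.4 CPM in SCI Tam, 47.0, 47.9, 49.7 and 44.8 CPM in SCI Veh, and 55.7, 49.5, 57.5 and 61.8 CPM in Uninjured. All SCI Tam libraries lay above all SCI Veh libraries, 513, 549 and 564 stood close together well above 452, and 452 lay within the Uninjured range. The log2 change was 0.60 ± 0.10 in SCI Tam against SCI Veh (95% interval 0.39 to 0.81, adjusted p = 0.00349) and 0.35 ± 0.10 in SCI Tam against Uninjured (adjusted p = 0.00941). SCI Veh lay below Uninjured by a log2 change of -0.25 that did not pass (adjusted p = 0.0516) and passed under 10 of 26 alternatives. With a term for the sample name series SCI Tam rests on mouse 452 alone, because 513, 549 and 564 make up the other series. That fit and the fit with 452 as the one SCI Tam library are therefore not separate checks. In both, the log2 change of Etv1 was 0.27 between SCI Tam and SCI Veh and 0.02 against Uninjured.

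Etv5 had 45.2, 44.5, 55.4 and 52.4 CPM in SCI Tam, 39.2, 40.9, 42.3 and 42.7 CPM in SCI Veh, and 41.0, 38.3, 38.0 and 39.0 CPM in Uninjured. SCI Tam lay above both other groups without overlap, and mice 549 and 564 stood apart from 452 and 513. The log2 change was 0.26 ± 0.08 in SCI Tam against SCI Veh (95% interval 0.10 to 0.42, adjusted p = 0.0368) and 0.34 ± 0.08 in SCI Tam against Uninjured (adjusted p = 0.00284). SCI Veh and Uninjured differed by 0.08 (95% interval -0.08 to 0.24, adjusted p = 0.407). The call between SCI Tam and SCI Veh was lost when mouse 402, 428, 429, 457, 549 or 564 was left out (adjusted p = 0.0860, 0.0600, 0.0551, 0.0629, 0.0806 and 0.102). It was also lost with a term for sex (log2 0.24, adjusted p = 0.167). With the series term or without 513, 549 and 564, SCI Tam rests on mouse 452, and the log2 change of Etv5 was 0.13.

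Etv4 had 9.59, 8.20, 12.1 and 13.7 CPM in SCI Tam, 12.1, 15.1, 9.73 and 13.7 CPM in SCI Veh, and 11.6, 15.2, 16.3 and 16.0 CPM in Uninjured. The groups overlapped in counts, and none of the comparisons passed: -0.21 in SCI Tam against SCI Veh (95% interval -0.60 to 0.18, adjusted p = 0.433), -0.23 in SCI Veh against Uninjured (-0.61 to 0.15, adjusted p = 0.295) and -0.44 in SCI Tam against Uninjured (-0.83 to -0.06, adjusted p = 0.0547).

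The authors' FPKM of the same libraries gave other calls for the Etv genes, while for the other 7 members no call changed. Etv5 had 10.9, 9.38, 11.7 and 11.2 FPKM in SCI Tam, 9.86, 11.3, 10.3 and 10.4 FPKM in SCI Veh, and 11.1, 10.5, 11.04 and 9.57 FPKM in Uninjured. All 3 groups overlapped on this scale, and the log2 change of FPKM with 1 added was 0.04 between SCI Tam and SCI Veh (adjusted p = 0.774 by limma) and 0.03 between SCI Tam and Uninjured (adjusted p = 0.815), so that neither call of Etv5 held. Etv1 had 13.6, 15.0, 15.5 and 15.6 FPKM in SCI Tam, 11.7, 11.4, 12.1 and 11.2 FPKM in SCI Veh, and 13.9, 11.7, 13.6 and 14.7 FPKM in Uninjured. SCI Tam still lay above SCI Veh without overlap, with a smaller log2 change of 0.34 (adjusted p = 0.0222 by limma), while SCI Tam against Uninjured was 0.14 (adjusted p = 0.147) and SCI Veh against Uninjured, at -0.20, passed (adjusted p = 0.0429). Etv4 had 7.87, 4.48, 6.68 and 6.13 FPKM in SCI Tam, 5.84, 8.06, 4.51 and 8.53 FPKM in SCI Veh, and 10.3, 12.5, 10.6 and 13.2 FPKM in Uninjured. Here both injured groups lay below Uninjured without overlap, and by limma Etv4 fell in SCI Tam (log2 -0.81, adjusted p = 0.00363) and in SCI Veh (log2 -0.73, adjusted p = 0.00528).

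**Figure D3:**
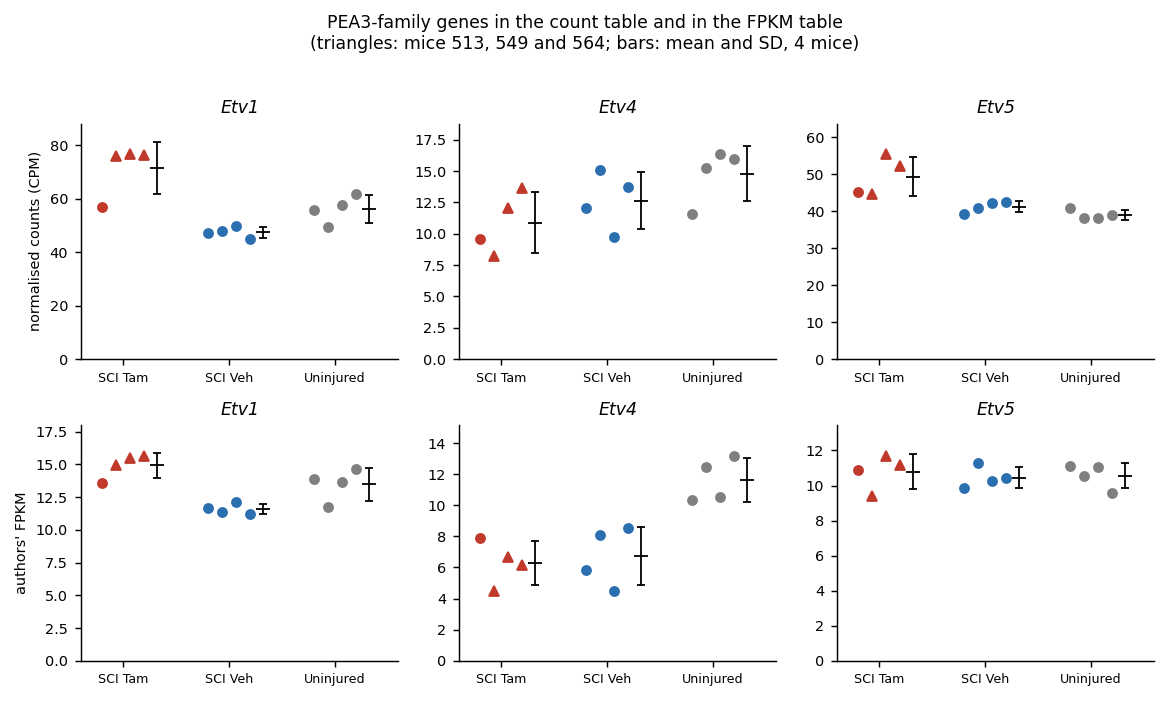
Etv1, Etv4 and Etv5 in normalised counts (top row, CPM) and in the authors' FPKM (bottom row) for the same 12 libraries, with the mean and SD of 4 mice beside each group. Etv5 separates SCI Tam from the other groups in counts alone, and Etv4 separates both injured groups from Uninjured in FPKM alone.

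The ratio of counts to FPKM within a library, centred on its median over 15268 genes with at least 200 counts in total, showed where the scales parted. In mice 513, 549 and 564 the log2 ratio exceeded that of the 9 other libraries by 0.25 for Etv1 and 0.28 for Etv5 without overlap, and by 0.35 for Etv4 with overlap. The other 7 members differed by between -0.11 and 0.00. Among these, Spred2 overlapped. Spry1, Spry2, Spry4, Spred1, Dusp4 and Dusp6 were lower in those mice, also without overlap. Steps at least as large as theirs were common, from 35.9% of genes at the size of Spry2 to 60.3% at that of Dusp4. The share of all genes without overlap, whatever the size of the step, was not counted. Steps at least as large were found for 11.4% of genes at the size of Etv1, 9.99% at that of Etv5 and 7.38% at that of Etv4, and no member reached the size of over 0.5 that 499 genes showed without overlap. For Etv4 the log2 ratio was also higher by 0.57 in SCI Veh than in Uninjured, without overlap (-0.773 to -0.346 and -1.241 to -0.813). In SCI Tam it was -1.165 in mouse 452, within the Uninjured range, and -0.576, -0.615 and -0.288 in mice 513, 549 and 564. Whether the counting of reads or the transcripts behind the FPKM values produced these shifts was not tested, so the calls of Etv4 against Uninjured rest on FPKM and those of Etv5 in SCI Tam on counts.

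Across the 12 libraries, the genes whose log2 CPM followed Etv1 most closely were Fam188a (Pearson r = 0.973), Pcmtd1 (0.958) and Ptcd3 (0.952), given as a description over libraries that share groups and series. In mice 513, 549 and 564 the log2 ratio of counts to FPKM was higher than in the other libraries by 0.92 for Pcmtd1 and 0.50 for Ptcd3. For Fam188a, the closest, this step was 0.16. Etv5 was followed most closely by Tipin (0.981), Fut8 (0.931) and Rad21 (0.918), whose steps were between -0.10 and -0.09.

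Upstream of Ras, the receptor genes Egfr, Fgfr1 and Erbb2 and the adaptor gene Shc1 were lower in SCI Tam than in SCI Veh. The 3 receptor genes were those called among 8 of the FGF and ERBB families, of which 0 rose, beside 7.79% higher and 8.33% lower over all genes tested. No test of a list was run, so the counts here and in the lists that follow are descriptions. Egfr, the EGF receptor, was at 24.5 ± 0.905 CPM in SCI Tam and 48.2 ± 4.28 in SCI Veh (log2 -0.98, adjusted p = 7.48e-05), Fgfr1 at 133.7 ± 9.23 and 179.6 ± 7.74 (log2 -0.43, adjusted p = 0.00214) and Erbb2 at 10.6 ± 2.23 and 18.1 ± 3.62 (log2 -0.77, adjusted p = 0.0220). Of 9 adaptor genes Shc1, which links receptors to GRB2, fell to 26.0 ± 3.41 CPM in SCI Tam, against 43.1 ± 6.30 in SCI Veh (log2 -0.73, adjusted p = 0.00460), and the other 8 did not pass. Of 14 measured ligand genes Fgf7 fell (1.85 ± 0.553 against 3.75 ± 0.751 CPM, log2 -0.99, adjusted p = 0.0234), and Fgf12 and Fgf9 rose by log2 changes of 0.41 and 0.33. Fgf12 is an intracellular FGF homologous factor that binds sodium channels rather than FGF receptors, and by FPKM its log2 change was 0.03 (adjusted p = 0.925). With a term for the sample name series SCI Tam rests on mouse 452 alone, so log2 changes alone are given. That of Egfr was -0.97. Under that term the log2 change of Fgfr1 was smaller, at -0.32, and those of Erbb2 (-1.25), Shc1 (-1.02), Fgf7 (-1.78), Fgf9 (0.42) and Fgf12 (0.48) were larger than without it. By FPKM Egfr and Erbb2 did not pass (log2 -0.63 and -0.53, adjusted p = 0.0738 and 0.0791). With a term for sex in the edgeR fit, Egfr, Fgfr1 and Shc1 still passed (adjusted p = 0.00231, 0.0200 and 0.0212). Erbb2, Fgf7, Fgf9 and Fgf12 then did not (adjusted p = 0.0760, 0.0960, 0.0845 and 0.0521).

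Inside the cascade, 2 of 10 kinase and scaffold genes rose in SCI Tam and 0 fell, beside the same shares over all genes. Map2k1, which encodes MEK1, was at 180.8 ± 14.8 CPM in SCI Tam and 154.5 ± 8.91 in SCI Veh (log2 0.23, adjusted p = 0.0387). Of 12 other measured feedback inhibitor genes, among them Dusp1 and Errfi1, 0 passed in either direction by edgeR or by limma on FPKM. Among 10 other genes used as readouts of ERK output 2 fell, Ier2 (9.63 ± 0.642 CPM in SCI Tam, 12.4 ± 0.404 in SCI Veh, adjusted p = 0.0252) and Fosl2 (25.9 ± 6.58 and 35.9 ± 0.871, adjusted p = 0.0326), by log2 changes of -0.36 and -0.47. Of 10 other ETS factor genes 2 fell, Elk4 by a log2 change of -0.37 (adjusted p = 0.0102) and Elk3 of -0.60 (adjusted p = 0.0157). For these 5 named genes too, a term for the sample name series leaves SCI Tam resting on mouse 452 alone. Under that term the log2 changes of Fosl2 (-0.81), Ier2 (-0.50) and Elk3 (-0.67) were larger than without it, and those of Elk4 (-0.18) and Map2k1 (0.06) smaller. By FPKM Elk4 and Elk3 passed and the other 3 did not. With a term for sex in the edgeR fit, Elk3 passed (adjusted p = 0.0387). Elk4, Map2k1, Ier2 and Fosl2 then did not (adjusted p = 0.0703, 0.0710, 0.0802 and 0.127). The median log2 change of these lists lay between -0.24 (readout genes) and 0.00 (cascade), beside 0.10 for the 10 members and 0.00 for all genes.

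**Figure D4:**
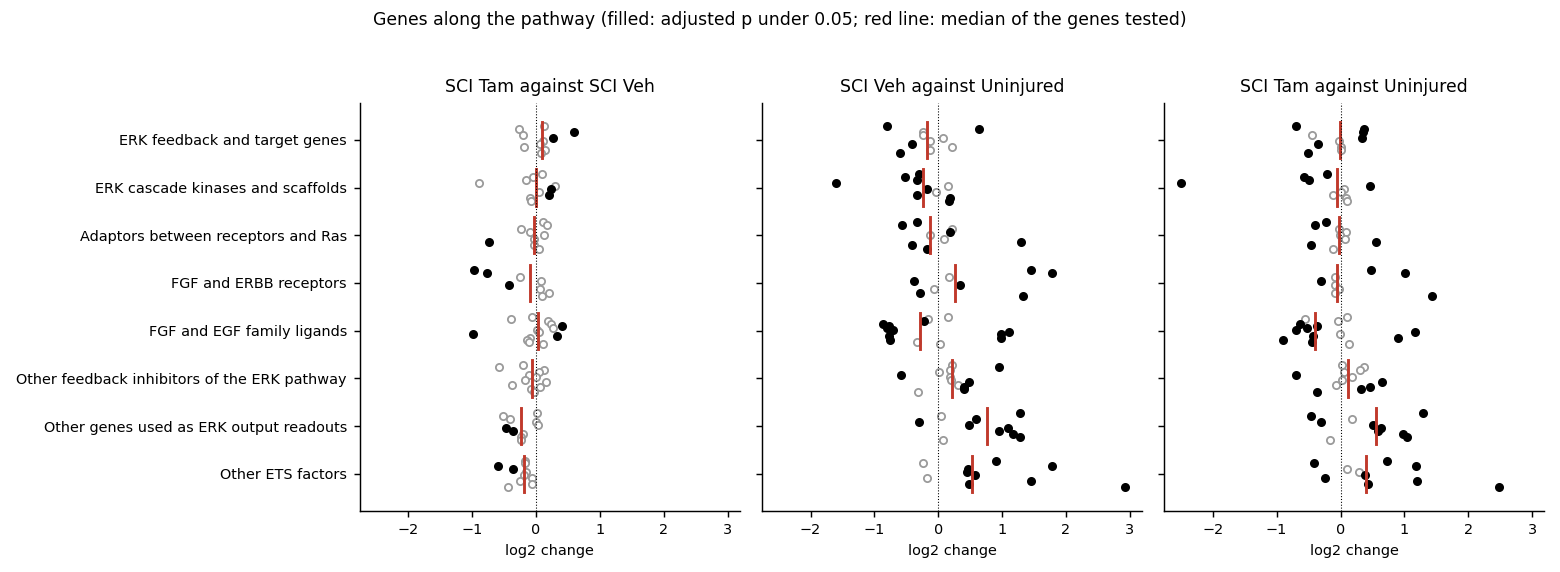
log2 changes of each tested gene of the 10 members and of 7 lists along the pathway for SCI Tam against SCI Veh, SCI Veh against Uninjured and SCI Tam against Uninjured, filled where the adjusted p was under 0.05, with the median of each list as a red line. Genes of the receptor, ligand, cascade, other feedback inhibitor, readout and ETS lists reach further from 0 than the members in both comparisons with Uninjured.

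Against Uninjured, the readout genes Myc and Mcl1 and the ETS genes Spi1 and Elk3 were higher in both injured groups. Of 10 other readout genes 6 rose and 2 fell in SCI Tam, and 7 rose and 1 fell in SCI Veh, beside 26.3% higher and 22.7% lower over all genes in SCI Tam and 26.7% and 24.1% in SCI Veh. The median log2 change of the readout genes was 0.55 in SCI Tam and 0.77 in SCI Veh, beside 0.01 and 0.02 over all genes, and that of the other ETS genes 0.40 and 0.53. Myc, a growth regulator, was at 10.7 ± 2.36 CPM in SCI Tam, 12.7 ± 0.895 in SCI Veh and 5.22 ± 0.491 in Uninjured, and Mcl1, an antiapoptotic gene, at 172.5 ± 21.8, 198.1 ± 32.7 and 87.8 ± 6.79. Of 10 other ETS factor genes 6 rose and 2 fell in SCI Tam and 8 rose and 0 fell in SCI Veh. Among them Spi1, the macrophage factor PU.1, had the largest log2 change of the 10 in both groups, 2.48 and 2.92 (20.2 ± 4.13 CPM in SCI Tam, 27.4 ± 8.54 in SCI Veh and 3.61 ± 0.653 in Uninjured), and Elk3 was at 24.1 ± 3.21, 36.4 ± 7.36 and 10.7 ± 0.914 CPM. Of 12 other feedback inhibitor genes 3 rose and 2 fell in SCI Tam, and 4 rose and 1 fell in SCI Veh. Dusp8, another phosphatase gene, fell in both (44.9 ± 5.93 CPM in SCI Tam, 48.7 ± 4.15 in SCI Veh and 72.8 ± 0.906 in Uninjured), while Rgs2, a regulator of G protein signalling, rose in both (52.7 ± 3.51, 55.9 ± 4.86 and 42.1 ± 1.78), which by FPKM did not pass (adjusted p = 0.453 and 0.180).

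Upstream and inside the cascade, genes were called in both directions after injury, at shares to be read beside the 48.9% of all genes called in SCI Tam and 50.8% in SCI Veh. Egfr rose in SCI Tam (log2 0.47, adjusted p = 0.000389) and in SCI Veh (log2 1.45, adjusted p = 4.04e-07), with Uninjured at 17.7 ± 0.805 CPM, although by FPKM neither change passed (adjusted p = 0.436 and 0.115). Of 8 receptor genes 3 rose and 1 fell in SCI Tam, and 4 rose and 2 fell in SCI Veh. Of 14 ligand genes 2 rose and 7 fell in SCI Tam, and 3 rose and 7 fell in SCI Veh. Hbegf, a ligand of the EGF receptor, rose to 41.4 ± 7.76 CPM in SCI Tam and 44.2 ± 2.85 in SCI Veh, against 22.4 ± 0.996 in Uninjured, while Nrg1, a ligand of ERBB3 and ERBB4, fell to 16.6 ± 1.30 and 18.4 ± 1.39, against 31.1 ± 3.37. Of 9 adaptor genes 1 rose and 3 fell in SCI Tam, and 2 rose and 4 fell in SCI Veh, with Sos1, an exchange factor of Ras, at 112.7 ± 8.72, 115.7 ± 6.81 and 154.7 ± 8.38 CPM. Of 10 cascade genes 1 rose and 4 fell in SCI Tam, and 2 rose and 6 fell in SCI Veh, so that 5 and 8 of the 10 were called, with Braf at 104.8 ± 18.5, 108.6 ± 7.40 and 155.8 ± 7.29 CPM.

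The makeup of the tissue differed between the groups in which the members were compared. Summed CPM of 10 fibroblast and pericyte markers was 718 to 1140 in SCI Tam, 2930 to 7940 in SCI Veh and 272 to 649 in Uninjured. Of these markers 0 rose and 7 fell in SCI Tam against SCI Veh, among them Pdgfrb at 40.2 ± 4.88 and 82.6 ± 11.6 CPM. Summed CPM of 10 neuron markers was 4980 to 5890 in SCI Tam, 4340 to 5310 in SCI Veh and 6780 to 7240 in Uninjured, and all 10 fell in SCI Veh against Uninjured. Astrocyte markers (8 genes) summed to 11400 to 14400 CPM in SCI Tam, 9890 to 12500 in SCI Veh and 7000 to 7790 in Uninjured, and microglia and macrophage markers (9 genes) to 580 to 1350, 839 to 1790 and 142 to 169 CPM. Skeletal muscle markers (10 genes) summed to 3.82 to 22.5 CPM in SCI Tam, 10.9 to 674 in SCI Veh and 4.48 to 782 in Uninjured. Schwann cell markers (6 genes) summed to 293 to 441, 457 to 664 and 122 to 541 CPM in that order, without overlap between SCI Tam and SCI Veh. Those groups overlapped in endothelial markers (7 genes; 420 to 511, 395 to 543 and 272 to 424 CPM). They also overlapped in oligodendrocyte and precursor markers (9 genes, 17600 to 18700, 15100 to 17900 and 14300 to 17800 CPM). None of the markers was at 0 in all libraries of the series, and the part of these differences in the changes of the members was not tested. Without the 5 libraries high in muscle transcripts, which leaves 1 SCI Veh and 2 Uninjured libraries, the log2 changes were 0.58 for Etv1 and 0.28 for Etv5 in SCI Tam against SCI Veh (adjusted p = 0.645 and 0.664). In SCI Veh against Uninjured they were then 0.42 for Dusp6, -0.35 for Spry4, -0.36 for Spred2 and -0.57 for Dusp4 (adjusted p between 0.143 and 0.405), and in SCI Tam against Uninjured Spry4 and Spred2 still passed.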

How the data were processed

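Per Ensembl gene, the authors deposited raw counts and, in a second table, FPKM (fragments scaled by transcript length and library depth). Per the submitters' processing notes TopHat, Picard, Cufflinks and HTSeq were used on mm9 (their roles, strandedness and treatment of multiply matching reads: not given in the sources used here). All columns of both tables were used, and p-values measure the spread between 4 mice a group.

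With edgeR 4.0.16 (R 4.3.3), counts were filtered by filterByExpr (minimum count 10, minimum total 15), scaled by TMM and fitted once by quasi-likelihood over the 3 groups, leaving 9 residual degrees of freedom. Tests were two-sided, with Benjamini-Hochberg adjustment over 16473 genes and a threshold of 0.05. The procedure was tested on simulated data with folds of 0.25, 0.5, 2 and 4. Of genes at a fold of 0.5, 72% to 76% were recovered, and at 2, 76% to 88%. Smaller changes, as all members had, were not simulated. SE and 95% intervals come from that fit, and CPM are TMM-normalised. FPKM gave levels per length and were tested by limma 3.58.1 on log2 values with 1 or 0.1 added. Reads carry no molecular identifiers, and depth limits counting precision.

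The members, lists and rules were chosen with earlier results of these data known. Named were all members, the genes of the line's alleles, up to 4 genes with the smallest p past the test per list and comparison, and for members called after tamoxifen the 3 most correlated genes. Of all genes so named, 2 are not reported here. Dusp1 and Errfi1, examples of a list with 0 calls, and Pdgfrb were named after their values were seen. Listed symbols absent from the table were matched by Ensembl identifier. Positions are given only for RefSeq promoters on GRCm38.p6, a later build than mm9. Alternatives were other scaling, filters and tools (DESeq2 1.42.0, limma-voom), FPKM, terms for sex and sample name series, and libraries left out. The log2 ratio of counts to FPKM used CPM with 0.1 and FPKM with 0.01 added.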

Additional observations from a re-analysis of the deposited data

Results flagged for a closer look

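In 60 groups of 4 libraries (10 members, 3 groups, CPM and FPKM) 3 held a library far from the other 3, by Dixon's test at its 95% value, and chance flags about 1 in 20 such groups. All 3 were in SCI Tam. Etv1 stood at 56.93 CPM in mouse 452, below 75.9 to 76.6 CPM in mice 513, 549 and 564. Spred2 stood at 12.26 FPKM in the same mouse, below 13.4 to 13.6 FPKM in the other 3. Spry1 stood at 17.60 CPM in mouse 549, above 14.0 to 14.4 CPM in the other 3.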

How the results depend on the processing

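Scaling by DESeq2 factors or library totals, no filter or a stricter one, DESeq2 and limma-voom left 2 members called in SCI Tam against SCI Veh, 4 to 6 in SCI Veh against Uninjured and 6 to 7 in SCI Tam against Uninjured. In SCI Tam against SCI Veh, limma on FPKM gave 1 member and 1499 genes (1403 with 0.1 added, 978 without a filter), a fit of the 8 libraries 1 and 1513, a term for sex 1 and 989, and a term for the sample name series 0 and 57. Leaving out 1 library gave 1 to 2 members and 1236 to 4631 genes there, 4 to 6 and 7267 to 8987 in SCI Veh against Uninjured, and 5 to 7 and 6717 to 8895 in SCI Tam against Uninjured. The lowest gene counts came without 513 (1236), 564 (1324) and 457 (1688), and the highest without 452 (4631). With the series term SCI Tam against Uninjured had 0 members and 1951 genes. Without 513, 549 and 564 (chosen after seeing the data) there were 0 members and 29 genes against SCI Veh, and 0 and 2024 against Uninjured. Without the 5 libraries high in muscle transcripts the members called were 0 (SCI Tam against SCI Veh), 0 (SCI Veh against Uninjured) and 2 (SCI Tam against Uninjured), and the genes 0, 296 and 3540. In these last fits the lone library of a group is assumed to vary like the others, and fewer samples were tested. The series term likewise leaves mouse 452 as the lone library behind the SCI Tam level, so it is no separate check from leaving out 513, 549 and 564.

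Signs turned in changes that did not pass on either side. In SCI Tam against Uninjured, Spry1 (0.01) was -0.00225 with DESeq2 factors, -0.000299 without a filter, -0.00109 with 8 libraries, -0.058 with the series term, -0.0199 with sex and -0.0585 without 513, 549 and 564, and lay between -0.0726 and 0.0512 with 1 library left out. Spry2 (0.00467) was -0.00905 with DESeq2 factors, -0.00203 with totals, -0.00691 without a filter, -0.00413 by DESeq2, -0.00739 with 8 libraries, -0.0721 with the series term and -0.0726 without 513, 549 and 564, and lay between -0.0327 and 0.0193 with 1 left out. Spred1 (-0.0168) was 0.0479 by FPKM with 1 added, with and without a filter, 0.0494 with 0.1 added, 0.0671 with the series term and 0.0666 without 513, 549 and 564, and lay between -0.0605 and 0.00703 with 1 left out. In SCI Tam against SCI Veh, Spred2 (0.0596) was -0.000356 without 429 and 0.0958 at its highest with 1 left out, Etv4 (-0.21) was 0.0298 with sex, and without the libraries high in muscle transcripts Spry2 was -0.0168, Spry4 -0.131 and Dusp4 -0.116. In SCI Veh against Uninjured, Spry2 (-0.13) was 0.0223 and Etv4 (-0.23) 0.0957 without those libraries, and Etv5 (0.08) was -0.0133 by FPKM with 1 added and -0.0144 with 0.1 added. The causes were not tested. No paired analysis was possible because mouse numbers are not shared between groups. Dusp4, with 52 to 123 counts a library, had the widest intervals among called members.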
